A study of Mus musculus with 6 samples.

Results

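A group of 6 genes with lower transcript levels in the arcuate nucleus after loss of estrogen receptor alpha is described here, made up of *Greb1*, *Rxfp1*, *Gpr101*, *Olfm2*, *Lamp5* and *Sphkap*. They are 6 of the 24015 genes counted in every library, and they were selected on these same counts, because each was clearly lower in all 3 mutant samples than in all 3 controls, so their falls are a description of the selection and carry no test. The libraries came from microdissected arcuate nucleus (ARC) of adult females, whose background the labels give as a mix of CD-1, 129P2 and C57BL/6, while the study's methods leave C57BL/6 out for this line. The 3 controls were Esr1fl/fl and the 3 mutants Esr1fl/fl;Nkx2-1-Cre, so both genotypes carried the floxed *Esr1* alleles and only the mutants carried Cre. The *Nkx2-1* promoter drives Cre throughout the medial basal hypothalamus from early development, which reaches the ventromedial nucleus as well as the ARC, and an effect in the adult cannot be told apart from one during development. The labels name separate samples without saying that each was a single animal, so the spread between replicates may be partly technical.

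Estrogen receptor alpha, the product of *Esr1*, is a nuclear receptor that binds estradiol, dimerizes and attaches to DNA at estrogen response elements, inverted repeats of GGTCA separated by any 3 bases, or is tethered there by other factors. In the ARC it is found in neurons that express kisspeptin, tachykinin 2 and dynorphin and in other neuron types, and it takes part in the control of reproduction and energy balance. The 6 genes belong to no single pathway. *Greb1* encodes a chromatin-bound coactivator of the receptor, known from breast and uterus as one of its target genes. *Rxfp1* encodes the relaxin receptor and *Gpr101* a constitutively active orphan receptor, and both couple to Gs and raise cAMP. *Sphkap* encodes an anchoring protein of the cAMP-dependent protein kinase (PKA). *Olfm2* encodes a secreted olfactomedin-domain glycoprotein that binds AMPA receptor complexes, and *Lamp5* a neuron-specific relative of the lysosomal membrane proteins.

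Where a full estrogen response element lies near these genes is shown first, because the elements are the DNA sites through which the deleted receptor binds directly. The motif searched was GGTCANNNTGACC, which reads the same on both strands, in the NCBIM37 assembly. *Greb1* was the only one of the 6 with a full site inside its gene body. The site lies in an intron at chr12:16767337-16767349, 40.3 kb downstream of the gene start. It is printed in the direction of transcription, on the minus strand, with 30 bases on each side and with the motif in capitals.

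Greb1 intron: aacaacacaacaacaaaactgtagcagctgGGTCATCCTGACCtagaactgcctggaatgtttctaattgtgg

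Of 14698 tested genes with a position, 5.33% had a full site within the gene body, and a stretch as long as *Greb1* (130.3 kb) downstream of the start held one in 14.7%. None of the 6 genes had a full site within 20 kb of its start, where 4.61% of tested genes had one. The nearest full site was 96.4 kb downstream of the start of *Olfm2*, 295.8 kb upstream of *Gpr101*, 463.0 kb upstream of *Sphkap*, 572.1 kb downstream of *Lamp5* and 1345.7 kb downstream of *Rxfp1*, against a median distance of 294.1 kb over the tested genes. A match is a description of the letters and not a binding site. Only exact matches were searched, so the lack of one does not show that a gene has no element nearby.

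Single arms of the element, GGTCA on either strand, were looked for in the RefSeq promoters of the GRCm38.p6 assembly, which hold 250 bases before the start and 50 after it. Promoters of 5 of the 6 genes were matched by symbol, all but that of *Rxfp1*. The first listed promoters of *Greb1*, *Olfm2* and *Sphkap* each held a single arm, and those of *Gpr101* and *Lamp5* held none. Further listed promoters, not printed here, held 1 arm in *Lamp5*, 2 in *Greb1*, and 2 and 0 in *Olfm2*. Over all listed promoters of all genes, 40.5% held at least 1. Of all 27025 first listed promoters, 40.2% held one, so a single arm in 3 of 5 is near that background. The 3 first listed promoters with a single arm are given in the direction of transcription, with the single arm in capitals (TGACC where it reads on the opposite strand). They lie at chr12:16800837-16801136, chr9:20746247-20746546 and chr1:83408151-83408450, all on the minus strand. These coordinates belong to another assembly than the gene positions below and cannot be set against them.

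Greb1 promoter: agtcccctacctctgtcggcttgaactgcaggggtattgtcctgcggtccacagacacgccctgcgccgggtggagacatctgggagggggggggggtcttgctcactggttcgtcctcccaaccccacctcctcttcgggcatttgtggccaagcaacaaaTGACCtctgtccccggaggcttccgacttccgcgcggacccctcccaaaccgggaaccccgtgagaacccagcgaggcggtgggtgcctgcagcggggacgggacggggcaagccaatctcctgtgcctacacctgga

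Olfm2 promoter: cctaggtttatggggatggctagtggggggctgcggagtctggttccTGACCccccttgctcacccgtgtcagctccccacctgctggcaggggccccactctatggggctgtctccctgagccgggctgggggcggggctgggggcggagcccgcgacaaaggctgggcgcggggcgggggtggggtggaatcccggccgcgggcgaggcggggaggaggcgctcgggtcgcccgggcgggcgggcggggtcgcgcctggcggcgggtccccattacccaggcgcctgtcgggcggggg

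Sphkap promoter: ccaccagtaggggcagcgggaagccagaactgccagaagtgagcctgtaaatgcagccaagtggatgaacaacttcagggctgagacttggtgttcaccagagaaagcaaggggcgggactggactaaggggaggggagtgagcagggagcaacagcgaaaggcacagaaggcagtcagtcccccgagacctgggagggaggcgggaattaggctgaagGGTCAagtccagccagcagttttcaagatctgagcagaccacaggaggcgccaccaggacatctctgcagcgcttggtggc

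Relative to the start, the arm began at base -88 in *Greb1*, -203 in *Olfm2* and -31 in *Sphkap*. No first listed promoter of these genes held a full site, which 0.0666% of all first listed promoters did.

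Libraries held between 11792440 and 17877137 counts on genes, and 15236 genes passed the filter on low counts, all 6 genes among them. Levels are given as CPM, the count scaled to a common library size after TMM normalization, on which 3 counts correspond to 0.175 to 0.248 CPM, a floor for counting error only. Marker genes moved between genotypes as well. Summed oligodendrocyte markers were at 723 to 1358 CPM in controls against 1786 to 1922 CPM in mutants (12 of 12 with a log2 fold change above 0, 2 of them past the threshold), and microglial markers at 319 to 339 and 418 to 469 CPM (10 of 10 above 0). Summed ARC markers were at 1041 to 1115 CPM in controls against 1172 to 1695 CPM in mutants, ventromedial markers at 104 to 234 and 124 to 362 CPM, and pan-neuronal markers at 5502 to 7014 and 5549 to 7272 CPM. Control replicate 2 stood apart by its anterior pituitary markers, 5.88 CPM against 459.7 to 757 CPM in the other libraries. No marker was at 0 in every library. The part of these differences in the results below was not tested, except for scaling to the pan-neuronal markers.

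*Esr1* (chr10:5340927-5734948, minus strand of NCBIM37) checked the labels. Levels were 64.5, 57.5 and 48.5 CPM across control replicates 1, 2 and 3, against 11.8, 9.55 and 7.06 CPM across mutant replicates 1, 2 and 3. The mutant mean was 16.7% of the control mean (log2 fold change -2.59, standard error (SE) 0.18, adjusted p = 0.000884 from edgeR's quasi-likelihood test). The count covers all exons of the gene, so it does not separate transcripts that lack the floxed exon from intact ones. In bulk tissue, fewer cells that express a gene and less RNA per cell cannot be told apart, here or for any gene below.

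With that test, 18 of 15236 genes had an adjusted p-value under 0.05, or 0.118%, and 9 of them, or 0.0591%, were lower in the mutants. Unadjusted p-values under 0.05 numbered 1349, or 8.85%. DESeq2 called 191 of the 15079 genes for which it gave an adjusted p, or 1.27%. *Rxfp1*, *Greb1*, *Olfm2* and *Gpr101* were 4 of the 9, and the others were *Esr1*, *Slc6a3* (log2 fold change -2.25), *Trpc5* (-0.75), *Pmepa1* (-0.68) and *Rbms3* (-0.66). *Lamp5* and *Sphkap* did not pass. The 3 mutants were below the 3 controls in 1200 genes, or 7.88%, and in all 6 genes described here, as the selection required. The median log2 fold change of the 6 genes was -1.24, against 0.0036 over all tested genes. The number of lower genes was 20 without control replicate 2, 5 without mutant replicate 2 and 5 without mutant replicate 3, and the number in both directions was 46, 9 and 7 without the same libraries.

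**Figure D1:**
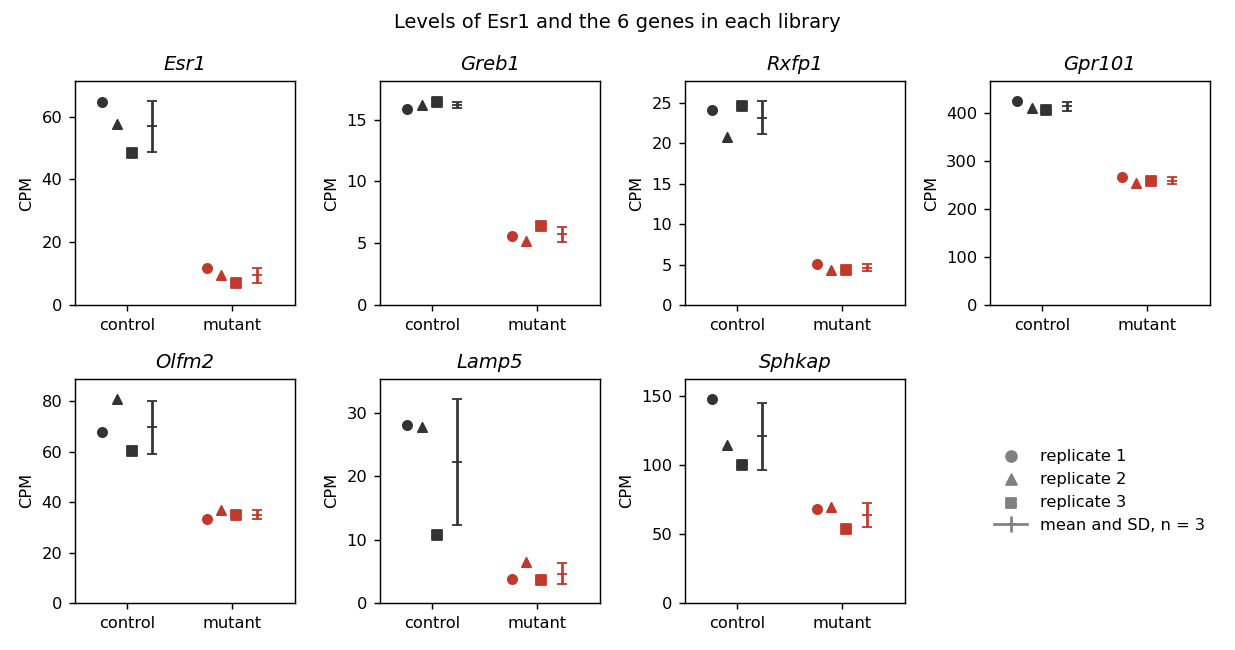
Level of *Esr1* and the 6 genes in each library, in CPM on linear axes that start at 0, with controls in black, mutants in red, one marker shape per replicate number, and the mean and SD of 3 libraries at the side. Every red point lies below every black point of its gene, as the selection required, and *Lamp5* has one control, at 10.7 CPM, far below the other controls.

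*Greb1* (chr12:16677421-16807692, minus strand of NCBIM37) is the member tied most closely to the receptor in other tissues. Levels were 15.9, 16.2 and 16.4 CPM across control replicates 1, 2 and 3, against 5.61, 5.15 and 6.4 CPM across mutant replicates 1, 2 and 3. The controls were nearly level, and the lowest of them was 2.48 times the highest mutant. The mean fell from 16.2 ± 0.273 to 5.72 ± 0.629 CPM (SD, n = 3), a log2 fold change of -1.5 (SE 0.15), which left 35.4% of the control level. The gene was read 229 to 278 times in a control library and 68 to 96 times in a mutant library. Counting alone gives a coefficient of variation of 6.35% at the mean control count, above the 1.69% observed, so the tightness of the controls is finer than these depths can resolve.

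By mean log2 CPM, which is not scaled to length, *Greb1* was near the middle of the tested genes in controls. It was at percentile 46.6 there and at percentile 25.7 in mutants. Its close relative *Greb1l*, a coactivator of retinoic acid receptors that shares most of its domain structure, was at 19.0, 25.5 and 20.9 CPM in controls against 19.1, 18.5 and 23.2 CPM in mutants. The genotypes overlapped in *Greb1l* (log2 fold change -0.1, SE 0.15, adjusted p = 0.893, edgeR).

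*Rxfp1* (chr3:79448638-79541716, minus strand) encodes the receptor for relaxin, the pregnancy hormone that acts on the reproductive tract and, in brain, on sites of fluid balance and on the hypothalamus. Levels were 24.1, 20.8 and 24.6 CPM across control replicates 1, 2 and 3, against 5.12, 4.4 and 4.33 CPM across mutant replicates 1, 2 and 3. The lowest control was 4.06 times the highest mutant, the widest ratio of the 6 genes. The mean went from 23.1 ± 2.07 to 4.61 ± 0.435 CPM (SD, n = 3), a log2 fold change of -2.33 (SE 0.15) that left 19.9% of the control level. Reads numbered 343 to 359 per control library and 62 to 70 per mutant library. The percentile of mean log2 CPM went from 54.7 to 22.4.

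The rest of the relaxin system had few reads. *Rxfp2*, the receptor for insulin-like peptide 3 and the nearest relative of *Rxfp1*, was at 5.56, 5.53 and 11.2 CPM in controls against 3.22, 2.83 and 3.6 CPM in mutants. Its genotypes did not overlap, with a log2 fold change of -1.2 (SE 0.3) that missed the threshold with edgeR (adjusted p = 0.219) and passed it with DESeq2 (adjusted p = 0.0374). The relaxin gene *Rln1* lay at 0.737 to 1.05 CPM in controls against 0.33 to 0.44 CPM in mutants, 58 reads over all 6 libraries, with an adjusted p of 0.489 (edgeR). *Rln3*, the brain relaxin, was too low to be tested and reached at most 0.717 CPM. Its receptor *Rxfp3* was at 5.03 ± 1.59 CPM in controls against 4.8 ± 1.18 CPM in mutants (SD, n = 3), and *Insl5* gave a log2 fold change of -0.45 (SE 0.46, adjusted p = 0.839, edgeR).

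Of the 11 listed genes of the relaxin family and of the LGR receptors, which share the leucine-rich ectodomain of *Rxfp1*, 7 were tested and 0 passed the threshold with edgeR in either direction, while DESeq2 called *Rxfp2* alone. Before adjustment 2 were higher, *Lgr4* (log2 fold change 0.36) and *Lgr5* (0.47), and 2 lower, *Rxfp2* and *Rln1*. Of all tested genes, 8.85% had such a p-value in either direction. The list's median log2 fold change was -0.11.

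*Gpr101* (chrX:54749845-54756934, minus strand) is an orphan receptor known from the hypothalamus and the nucleus accumbens and, through duplications of its locus, from excess growth hormone. Levels were 425, 412 and 407 CPM across control replicates 1, 2 and 3, against 268, 254 and 258 CPM across mutant replicates 1, 2 and 3. The 2 genotypes were 139 CPM apart at their nearest libraries and the coefficients of variation were 2.33% and 2.81%. Its log2 fold change was -0.67 (SE 0.07), from 415 ± 9.64 to 259.8 ± 7.3 CPM (SD, n = 3), which is 62.7% of the control level. This was the smallest proportional fall of the 6 genes. In reads, which scale with transcript length, it was the largest, 155 of the 293 CPM that the 6 genes lost together, or 52.8%. *Gpr101* stayed at a high percentile of mean log2 CPM, 97.7 in controls and 95.1 in mutants. Divided by the summed pan-neuronal markers, its log2 fold change was -0.74.

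Of 23 other orphan receptors of its class that were tested, 0 passed the threshold with edgeR and 1, *Gpr83*, was called higher with DESeq2. Before adjustment 2 were higher and 1 lower, against 8.85% of all tested genes in either direction. The median log2 fold change was -0.09 (range -0.62 to 0.91). *Gpr50*, a melatonin receptor relative of the tanycytes and dorsomedial hypothalamus, was at 333 ± 50.4 CPM in controls against 296 ± 35.5 CPM in mutants (log2 fold change -0.17, adjusted p = 0.759, edgeR). *Gpr161*, which dampens Hedgehog signalling at the cilium, gave -0.07 and *Gpr19* -0.19.

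*Sphkap* (chr1:83250714-83404775, minus strand) holds PKA near its membranes through the type I regulatory subunits and is known from brain and heart. Levels were 148, 115 and 100.4 CPM across control replicates 1, 2 and 3, against 68.2, 69.3 and 53.7 CPM across mutant replicates 1, 2 and 3. The lowest control, replicate 3, was 1.45 times the highest mutant, the narrowest ratio of the 6 genes. The mean was 121 ± 24.6 CPM in controls against 63.7 ± 8.7 CPM in mutants (SD, n = 3), a log2 fold change of -0.93 (SE 0.16) that left 52.6%. Counting gives a coefficient of variation of 2.32% at the control depth against 20.3% observed, so its controls spread by more than counting error.

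The pathway that *Rxfp1*, *Gpr101* and *Sphkap* have in common did not pass the threshold with edgeR or DESeq2 at any gene tested. Of 41 tested genes for Gs, adenylyl cyclases, PKA subunits, CREB factors and phosphodiesterases, 0 passed the threshold. Before adjustment 2 were higher and 1 lower, against 8.85% of all tested genes in either direction. The median log2 fold change was -0.06 (range -0.35 to 0.77). *Gnas*, the stimulatory G protein, was at 2845 ± 81.5 CPM in controls against 2644 ± 106 CPM in mutants (SD, n = 3). *Prkar1a*, a type I regulatory subunit of PKA, was at 1272 ± 63.9 and 1288 ± 24.1 CPM.

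Of 15 tested anchoring proteins other than *Sphkap*, 0 passed the threshold with edgeR and 1, *Akap5*, was called lower with DESeq2. Before adjustment 1 was lower, against 8.85% of all tested genes in either direction, and the median log2 fold change was 0.01. *Akap11*, which also anchors type I regulatory subunits, went from 902 ± 88.6 to 824 ± 98.2 CPM (log2 fold change -0.13, SE 0.11, adjusted p = 0.791, edgeR) and *Akap9* gave -0.19. *Sphkap* takes its name from an interaction with sphingosine kinase 1, whose gene *Sphk1* lay between 0.287 and 1.4 CPM and was not tested, while *Sphk2* gave a log2 fold change of -0.03.

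*Olfm2* (chr9:20472144-20532673, minus strand) is expressed in brain and retina. Levels were 67.7, 80.9 and 60.3 CPM across control replicates 1, 2 and 3, against 33.4, 36.8 and 35.0 CPM across mutant replicates 1, 2 and 3. Controls varied more than mutants, with coefficients of variation of 15.0% and 4.77%, and control replicate 2 was the highest library. The mean went from 69.6 ± 10.4 to 35.0 ± 1.67 CPM (SD, n = 3), a log2 fold change of -0.99 (SE 0.12), and 50.4% of the control level was left. The lowest control was 1.64 times the highest mutant.

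Relatives and partners of *Olfm2* did not pass the threshold with edgeR or DESeq2. *Olfm1* was at 189 ± 8.75 CPM in controls against 173 ± 15.0 CPM in mutants (SD, n = 3; log2 fold change -0.13, adjusted p = 0.733, edgeR), and *Olfm3* at 70.8 ± 4.72 and 63.1 ± 9.37 CPM (-0.17, adjusted p = 0.729, edgeR). Over 10 tested genes of the olfactomedin family and the latrophilins, adhesion receptors that some of them bind, 0 passed the threshold. Before adjustment 3 were higher and 0 lower, against 8.85% of all tested genes in either direction, and the median log2 fold change was 0.02. *Lphn1* and *Lphn3* gave -0.19 and -0.15. The 4 AMPA receptor subunits had a median log2 fold change of -0.09, with 0 past the threshold and 0 before adjustment, with *Gria1* at -0.12 and *Gria2* at -0.06.

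*Lamp5* (chr2:135877975-135895653, plus strand) marks a class of GABA interneurons in cortex and is found at GABA synapses of subcortical neurons. Levels were 28.1, 27.7 and 10.7 CPM across control replicates 1, 2 and 3, against 3.71, 6.53 and 3.6 CPM across mutant replicates 1, 2 and 3. Control replicate 3 held 48.2% of the control mean and stood nearer to the mutants than to the other controls, 4.15 CPM above the highest mutant. The mean was 22.2 ± 9.95 CPM in controls against 4.61 ± 1.66 CPM in mutants (SD, n = 3), a log2 fold change of -2.25 with an SE of 0.45, about 3 times that of *Rxfp1* for a fall of nearly the same size. Leaving out each library in turn gave log2 fold changes between -2.6 and -2.05. The observed coefficients of variation, 44.9% in controls and 36.0% in mutants, were above the 5.36% and 12.2% that counting gives.

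*Lamp1* and *Lamp2*, the lysosomal members of its family that most cells express, lay slightly higher in the mutants and did not pass the threshold. *Lamp1* lay between 356 and 379 CPM in controls and between 383 and 419 CPM in mutants (log2 fold change 0.11, adjusted p = 0.721, edgeR). *Lamp2* went from 248 ± 23.1 to 276 ± 7.75 CPM (SD, n = 3; log2 fold change 0.15, adjusted p = 0.654, edgeR). Of the 3 tested members of the family, 0 passed the threshold with edgeR or DESeq2 and 0 had an unadjusted p under 0.05. *Lamp3* was too low to be tested, at 0.524 to 0.646 CPM in controls against 0.165 to 0.44 CPM in mutants. Of 4 tested genes for GABA synthesis and transport, 0 passed the threshold with edgeR or DESeq2. Before adjustment 2 were lower, against 8.85% of all tested genes in either direction. All 4 had a log2 fold change below 0, with a median of -0.22. *Gad2* gave a log2 fold change of -0.13.

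Levels can be set between genes only per length of transcript. Per kilobase of annotated exon, *Gpr101* was highest in controls, at 76.6 CPM per kb, followed by *Olfm2* at 38.1, *Sphkap* at 12.6, *Rxfp1* at 10.2, *Lamp5* at 7.56 and *Greb1* at 1.69, with *Esr1* at 4.15. In mutants the same scale gave 48.0 for *Gpr101*, 19.2 for *Olfm2*, 6.62 for *Sphkap*, 2.03 for *Rxfp1*, 1.57 for *Lamp5* and 0.597 for *Greb1*. The order was the same in both genotypes, though libraries of *Rxfp1* and *Lamp5* overlapped in both and those of *Sphkap* and *Rxfp1* overlapped in controls. The annotated model of *Rxfp1* holds 2277 exon bases of which 2274 are coding, so it has nearly no untranslated sequence. Its level per kb is overstated if the reads were counted over untranslated exons as well, which is not known here.

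**Figure D2:**
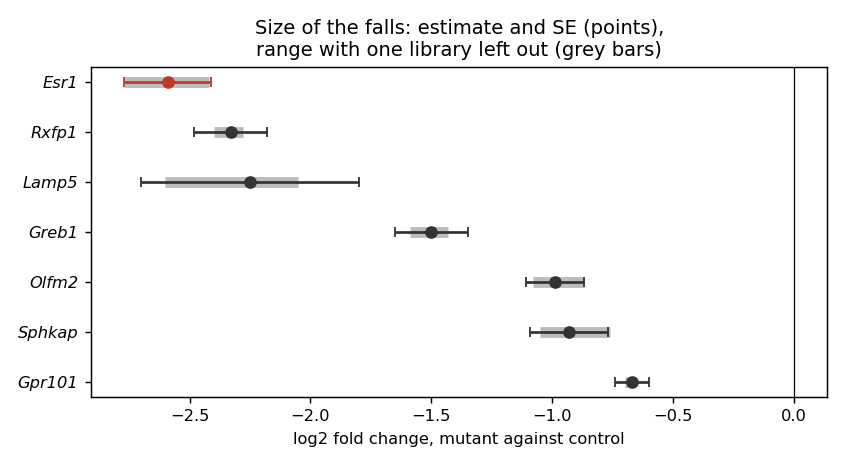
Log2 fold change of mutants against controls for *Esr1* (red) and the 6 genes (black), with bars for the SE and grey bars for the range with 1 library left out in turn. The values run from -2.59 for *Esr1* to -0.67 for *Gpr101*, and no range comes near 0.

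By the size of the fall, the genes are split here into a steep group, *Rxfp1*, *Lamp5* and *Greb1*, and a shallower group, *Olfm2*, *Sphkap* and *Gpr101*. The split is for description only, since *Greb1*, at -1.5, lay between *Lamp5* at -2.25 and *Olfm2* at -0.99. The 3 steep genes were near the middle of the tested genes in controls, between percentiles 46.6 and 54.7 of mean log2 CPM. The 3 shallower genes were between percentiles 77.6 and 97.7. At lower counts a larger fold is needed for a clear fall, so the selection itself may pair steep falls with lower levels. This was not tested. The share of the control level left in mutants was 19.9%, 20.8% and 35.4% in the first group and 50.4%, 52.6% and 62.7% in the second, against 16.7% for *Esr1*. With each library left out in turn, the log2 fold change stayed between -2.4 and -2.28 for *Rxfp1*, -1.59 and -1.43 for *Greb1*, -1.08 and -0.87 for *Olfm2*, -1.05 and -0.76 for *Sphkap* and -0.7 and -0.66 for *Gpr101*.

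How closely each gene followed *Esr1* was measured over the 6 libraries as the root mean square difference of log2 CPM, each gene centred on its own mean, which is smaller for genes with a fall of the same size and the same differences among replicates. *Rxfp1* was the nearest of all tested genes to *Esr1*, at 0.26, where the median tested gene was at 1.33. *Lamp5* was at 0.52 and *Greb1* at 0.63, in positions 4 and 9, and *Olfm2* and *Sphkap* were both at 0.85, in positions 29 and 30. *Gpr101*, at 0.98, was in position 91. The 5 nearest genes outside the 6 were *Slc6a3* (0.42), the dopamine transporter of the tuberoinfundibular neurons, *Gdf6* (0.46), *Crabp1* (0.56), *Nhlh2* (0.58) and *Prok2* (0.59). Of these 5, only *Slc6a3* passed the threshold with edgeR, while DESeq2 called them all. *Gdf6* had 162 reads over all 6 libraries. Since all of these libraries fall into 2 separate genotypes of 3, no correlation over them is given, and the distance mostly restates the size of the fall.

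Within a genotype, where the genotype itself cannot set the order, the order of libraries differed from gene to gene. *Esr1* was highest in replicate 1 and lowest in replicate 3 in both genotypes. Among controls, *Gpr101*, *Lamp5* and *Sphkap* had the same order of libraries as *Esr1*, while *Greb1* had the opposite one. Among mutants, only *Rxfp1* had the order of *Esr1*, with values of 5.12, 4.4 and 4.33 CPM that are 62 to 70 reads each. With 3 libraries per genotype an order is a description only.

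**Figure D3:**
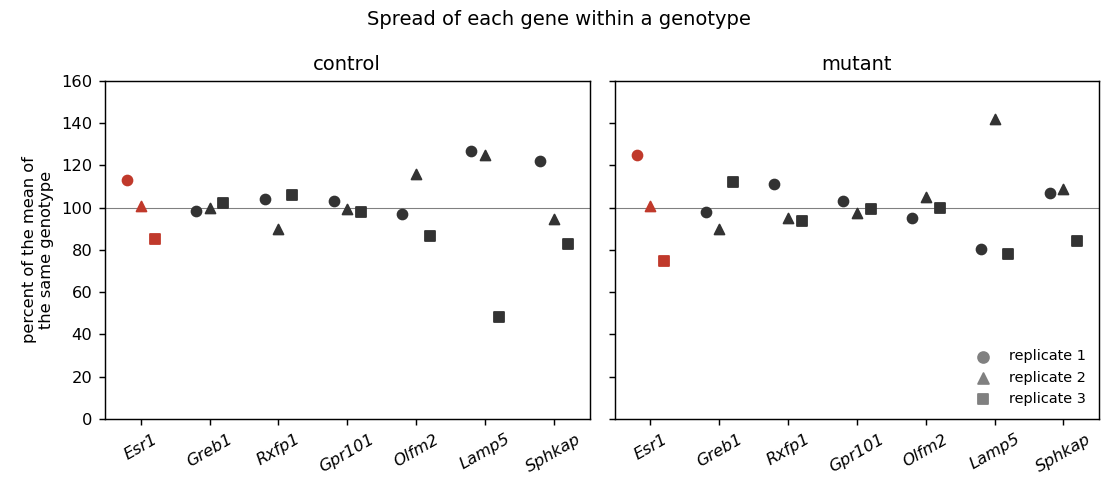
Each library as a percent of the mean of its own genotype, for *Esr1* (red) and the 6 genes (black), with controls at left, mutants at right and one marker shape per replicate number. *Lamp5* spreads widest, from 48.2% to 127% in controls and from 78.0% to 142% in mutants, and *Gpr101* stays within 97.6% and 103%.

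Among themselves the 6 genes were nearest within the shallow group, with distances of 0.2 between *Gpr101* and *Olfm2*, 0.22 between *Gpr101* and *Sphkap* and 0.22 between *Olfm2* and *Sphkap*. *Greb1* was nearer to *Olfm2* (0.3), *Sphkap* (0.39) and *Gpr101* (0.41) than to *Rxfp1* (0.43) and *Lamp5* (0.68), the other genes of the steep group. *Gpr101* and *Lamp5* were the farthest apart, at 0.91. The genes outside the 6 that were nearest to their mean profile were *Nr4a2* (0.21), a nuclear receptor of dopamine neurons, *Gm10538* (0.21), *Col2a1* (0.23), *Syndig1l* (0.24) and *Sv2c* (0.29). None of these passed the threshold with edgeR, while DESeq2 called all but *Gm10538*, which had 111 reads over all 6 libraries. *Nr4a2* was at 32.2, 29.6 and 23.7 CPM in controls against 11.8, 14.4 and 7.99 CPM in mutants.

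Of 21 tested estrogen receptors and cofactors, 0 passed the threshold with edgeR and 1, *Pgr*, was called lower with DESeq2. Before adjustment 1 was higher and 4 were lower, where 8.85% of all tested genes had such a p-value in either direction. All mutants lay below all controls in 6 of the 21 and above them in 1, where 7.88% of all tested genes did each. The median log2 fold change was -0.08. *Esr2*, which encodes estrogen receptor beta, was not tested and lay between 0.067 and 0.533 CPM over the 6 libraries. The broad coactivators *Ep300* and *Crebbp*, histone acetyltransferases, gave -0.21 and -0.14 with adjusted p-values of 0.489 and 0.665 (edgeR).

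Genes known to respond to estrogen in brain, breast or uterus went both ways. The list sets *Kiss1*, *Tac2* and *Pdyn*, markers that the paper describes as repressed by estrogen, beside targets such as *Pgr*. No single direction is therefore set for it in advance. All mutants lay above all controls in 10 of the 25 tested genes and below them in 3, where 7.88% of all tested genes did each. Of 25 tested, 1 passed the threshold with edgeR and it was higher, while DESeq2 called 5 higher and 2 lower. Before adjustment 9 were higher and 3 lower, where 8.85% of all tested genes had such a p-value in either direction, and the median log2 fold change was 0.25 (range -0.64 to 2.16). *Penk*, the enkephalin precursor, was the one that passed, with 134, 169 and 147 CPM across control replicates 1, 2 and 3 and 503, 349.6 and 388 CPM across the mutants (log2 fold change 1.46, SE 0.14, adjusted p = 0.00672, edgeR). Its call was lost without control replicate 3 (adjusted p = 0.0682).

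*Pgr*, the progesterone receptor and a classical target, had separate genotypes at 117 ± 6.31 and 75.1 ± 9.52 CPM (SD, n = 3) and a log2 fold change of -0.64 (SE 0.1), close to that of *Gpr101*, with an adjusted p of 0.0567 (edgeR) that missed the threshold and 6.68e-05 with DESeq2. *Prlr*, the prolactin receptor, was alike at 409.6 ± 34.2 and 271 ± 27.3 CPM, with a log2 fold change of -0.6 and an adjusted p of 0.0606 (edgeR) and 2.79e-05 with DESeq2. *Ctsd*, a lysosomal protease and a target in breast cells, gave 0.12 (adjusted p = 0.687, edgeR).

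**Figure D4:**
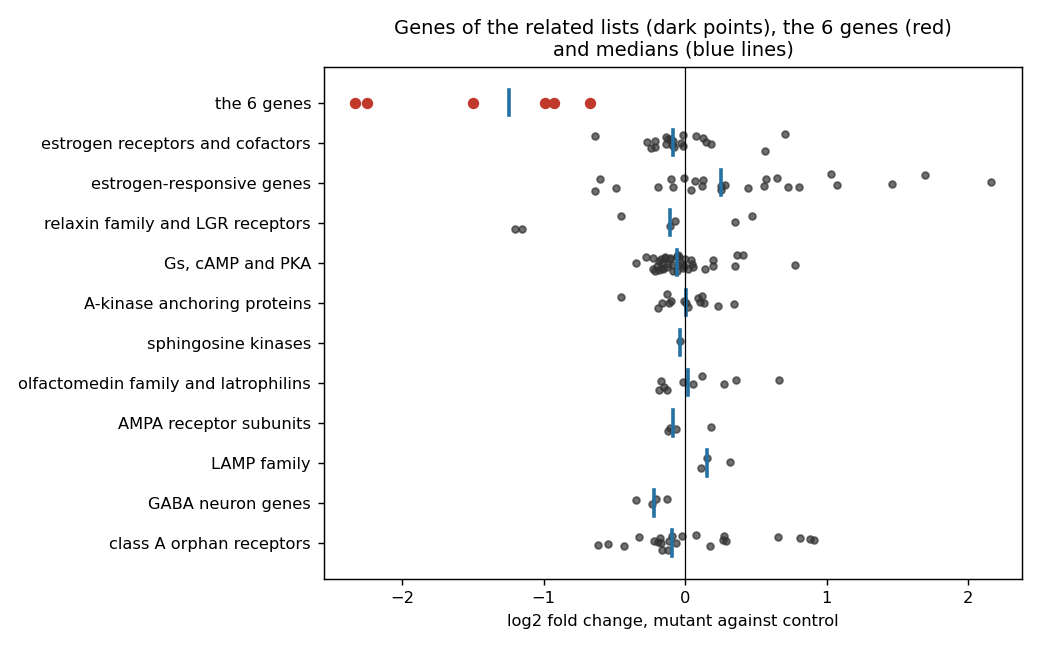
Log2 fold changes of mutants against controls for the 6 genes (red) and for the tested genes of each related list (dark points, 1 row per list), with the median of each row as a blue line. The 6 genes run from -2.33 to -0.67 around a median of -1.24 because they were chosen for it, while the medians of the lists lie between -0.22 and 0.25.

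Over all 11 lists, 152 of 171 listed genes were tested, 1 passed the threshold with edgeR in the higher direction and 0 in the lower, and the median log2 fold change was -0.05. Before adjustment 19 were higher and 13 lower, against 8.85% of all tested genes in either direction. With DESeq2, 6 passed in the higher direction and 4 in the lower, against 1.27% of all genes. The 6 were *Penk*, *Kiss1*, *Tac2*, *Pdyn*, *Oxtr* and *Gpr83*, and the 4 were *Pgr*, *Prlr*, *Rxfp2* and *Akap5*, named here after their values were seen. With limma voom, *Penk* alone passed. The 3 mutants lay below the 3 controls in 17 of the 152 and above them in 25, where 7.88% of all tested genes had the mutants below and 7.88% had them above (1200 and 1201 genes).

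The nearest tested protein-coding genes on either side of each of the 6 were examined to see whether the falls extended along the chromosome. Of 12 such neighbours 0 passed the threshold (edgeR, and 0 with DESeq2; 1 had an unadjusted p under 0.05), and their log2 fold changes ran from -0.41 to 0.62 around a median of -0.02. Of all tested genes, 8.85% had such an unadjusted p-value. All mutants lay below all controls in 1 of the 12 and above them in 1, where 7.88% of all tested genes did each. The neighbours named here were picked after their values were seen. *Ntsr2*, a neurotensin receptor of astrocytes 10.4 kb from *Greb1*, had the lowest value, with 114 ± 32.9 CPM in controls against 86.0 ± 19.6 CPM in mutants (SD, n = 3; adjusted p = 0.703, edgeR). *E2f6*, a transcriptional repressor 10.1 kb from *Greb1* on its other side, was the one neighbour with all mutants below all controls, at 76.1 ± 2.18 and 69.2 ± 1.58 CPM (log2 fold change -0.14, adjusted p = 0.654, edgeR). *Col5a3*, a collagen gene 41.8 kb from *Olfm2*, had the highest value, 0.62 (SE 0.38). *Pid1*, 628 kb from *Sphkap*, was the one with all mutants above all controls, at 0.32 (SE 0.12, adjusted p = 0.456, edgeR).

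**Figure D5:**
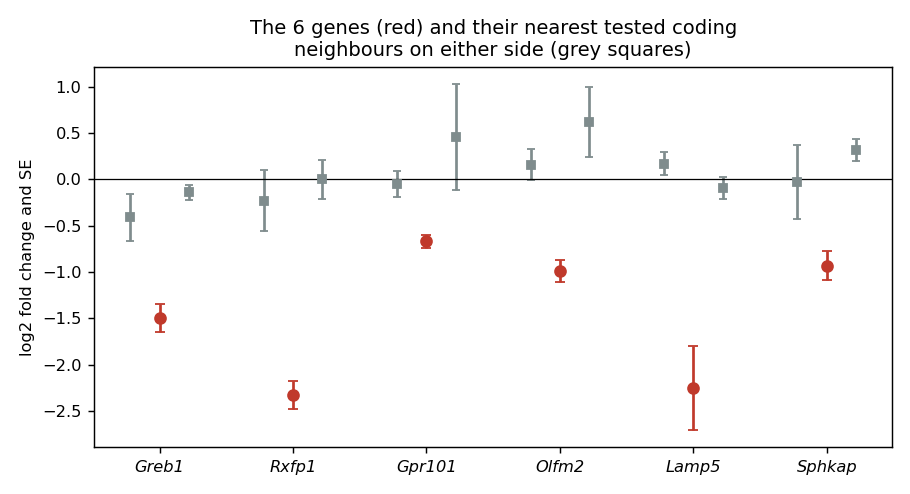
Log2 fold change with its SE for each of the 6 genes (red circles) and for its nearest tested protein-coding neighbour on either side (grey squares), with a line at 0. The neighbours lie between -0.41 and 0.62. Each lies above the gene it flanks, which the selection of the 6 genes for their falls largely sets.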

How the data were processed

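RNA from microdissected ARC of 3 control and 3 mutant females, 50 ng per sample per the labels, was amplified with the NuGEN Ovation system and sequenced as single-end 50 bp reads. According to the submitters' processing notes the reads were mapped with TopHat2 2.1.0 and counted with HTSeq 0.6. The deposited values are raw counts, 1 whole number per gene symbol and sample, with no normalization by the authors. The strand setting of the counting is not given in the sources used here, so a gene and an overlapping antisense transcript cannot be told apart. The notes name mm9 as the genome build, and the counts carry no coordinates. Positions are those of GENCODE on NCBIM37 by symbol, with a single match for 21836 of 24015 genes, of which 1073, *Lamp5* among them, matched through an older RefSeq name.

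The tests used edgeR 4.0.16 in R 4.3.3, with robust quasi-likelihood dispersions, TMM scaling and the default filter on low counts. P-values were adjusted over all 15236 tested genes (Benjamini-Hochberg), and 0.05 was the threshold. CPM are the counts divided by the TMM-scaled library size, and log2 CPM for distances used a prior count of 2. The SE was taken as the log2 fold change divided by the square root of its F statistic. The study used DESeq2, run here (1.42.0) as an alternative beside limma voom (3.58.1), RLE scaling, filters of 1 count in any and 10 counts in every sample, a replicate block, each library left out and, for the 6 genes, scaling to pan-neuronal markers. The fits were checked on simulated counts. The 6 genes, the lists and the markers were chosen with earlier results of these data known. Named genes are the 6 and *Esr1*, other genes lower past the threshold, close relatives, genes of each list past the threshold or otherwise its 2 most abundant, and the 5 genes nearest to *Esr1* and to the mean profile. Some genes that this rule takes are not reported here.

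Between libraries, chi-square per degree of freedom was 6.598 to 29.622, so no pair differed by sampling noise alone. Without molecular identifiers, reads may be copies of one molecule. Sequences were read from NCBIM37 and from the RefSeq promoters of GRCm38.p6.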

Additional observations from a re-analysis of the deposited data

How the results depend on the processing

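The median of the 6 genes and the log2 fold change of *Esr1* kept their direction and size under every alternative run, between -1.29 and -1.23 and between -2.77 and -2.42 with each library left out. Of the values of the 6 genes, 77 stayed within the spread between replicates and 1 moved, *Gpr101* at -0.74 when scaled to the pan-neuronal markers. The number of genes past the threshold was 191 with DESeq2, 106 with a filter of 1 count in any sample, 123 with the replicate block and between 7 and 46 with each library left out, against 18. Those lower numbered 94, 57, 54 and between 5 and 20, against 9, and those of the related lists 10, 4, 5 and between 0 and 2, against 1. The causes were not tested. The counts stayed within 1.5 times with RLE scaling, limma voom and a filter of 10 counts in every sample.

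Same-numbered samples had correlations of their deviations of 0.28, 0.05 and -0.0, so the numbers are not taken as pairs. Control 3 correlated no better with mutant 3 than with mutant 2 (0.01). With the replicate block, *Penk* had an adjusted p of 0.0626, *Pgr* 0.0109 and *Prlr* 0.0337. With a filter of 1 count in any sample *Pgr* had 0.00337 and *Prlr* 0.004.

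Leaving out each library turned the direction of some related genes near 0. Their ranges were -0.21 to 0.029 for *Greb1l*, -0.29 to 0.17 for *Rxfp3*, -0.22 to 0.032 for *Gria1*, -0.13 to 0.0036 for *Gria2*, -0.081 to 0.025 for *Sphk2*, -0.22 to 0.059 for *Gpr161* and -0.023 to 0.041 for *Prkar1a*. Of the other named genes, 387 values kept direction and side of the threshold. With 3 samples per genotype, an exact permutation test of one gene could not reach the threshold, and *Rln1*, *Rln3*, *Lamp3*, *Sphk1* and *Esr2* had too few reads to show any but a large difference.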
